A study of Mus musculus with 8 samples.

Results

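The genes described here are 7 members of the fibroblast growth factor (FGF) family that are known from the heart field, the adjacent pharyngeal tissue or the heart itself: *Fgf3*, *Fgf8*, *Fgf9*, *Fgf10*, *Fgf12*, *Fgf15* and *Fgf16*. They were taken by name, found by their Ensembl identifiers, and all 7 are among the 49315 genes of the deposited tables. The data are bulk poly-A RNA-seq of whole mouse hearts at embryonic day 9.5, with 4 wild-type libraries and 4 libraries from homozygous Tbx20EH1Mut embryos, each made from 3 pooled hearts. Tbx20EH1Mut is a germline allele made by CRISPR editing, in lines bred back to C57BL/6J mice, which replaces 2 amino acids in the EH1 domain of the T-box factor Tbx20, the stretch that contacts TLE co-repressors. The allele is present in every cell of the embryo and is not limited to the heart, and the labels give the controls as WT. Levels are given in CPM, the count of a gene relative to the scaled size of its library. A gene counts as called where edgeR's adjusted p did not exceed 0.05 and the log2 fold change was 0.5 or more in either direction.

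Most FGFs are secreted proteins that bind heparan sulfate and activate FGF receptor tyrosine kinases, which signal through the ERK pathway. Sprouty, Spred and DUSP6 proteins then dampen the signal, and Etv factors carry it to target genes. In the embryo, *Fgf8* and *Fgf10* mark progenitors of the second heart field, the mesoderm behind the heart tube that supplies the outflow tract and right ventricle. *Fgf9* and *Fgf16* come from the epicardium and endocardium and act on the myocardium. *Fgf3* and *Fgf15* are made in the pharyngeal region, and *Fgf15* belongs to the endocrine subfamily. *Fgf12* is different in kind, since it is an FGF homologous factor that stays inside the cell and binds sodium channels, and it is no ligand.

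The libraries held between 33359322 and 49523086 counts, and 17163 genes passed the filter on low counts. Of these, 24.6% were called, 12.5% higher and 12.1% lower in Tbx20EH1Mut hearts, and the genotypes did not overlap in 30.5%. With upper-quartile scaling the split shifted from 50.9% to 61.6% of the called genes being higher. Tbx20 itself lay between 353 and 379.6 CPM in wild-type hearts and between 215 and 317 CPM in Tbx20EH1Mut hearts, without overlap. It passed the adjusted p (0.0273 in edgeR), but its log2 fold change of -0.461 did not reach the threshold. The 2 changed codons cannot be read from gene counts. Cardiomyocyte markers were abundant, with summed levels of 23514 to 32914 CPM in wild-type and 23805 to 36652 CPM in Tbx20EH1Mut libraries, and *Actn2* was the only 1 of 9 that was called (lower). Markers of tissue that borders the heart differed between libraries. The summed level of 14 pharyngeal and foregut endoderm markers was 212 to 328 CPM in wild-type and 706 to 972 CPM in Tbx20EH1Mut libraries. Of the 14, 7 were higher. *Krt8* and *Krt18* carried most of the sum. Their means were 146 and 67.4 CPM in wild-type and 445 and 223 CPM in Tbx20EH1Mut hearts. Among the tested markers of the remaining lists, 3 of 5 for pharyngeal mesoderm, 2 of 7 for proepicardium and epicardium (*Wt1* and *Krt19*), 3 of 8 for endocardium and endothelium, 2 of 4 for neural tube (*Pax6* and *Nkx6-1*), 1 of 6 for neural crest (*Dlx6*) and 1 of 6 for liver were higher, 0 of 3 for surface ectoderm were called (1 at an unadjusted p of at most 0.05), and 7 of 7 for erythroid cells were lower. An unadjusted p of at most 0.05 was reached by 5 of 6 liver markers and 4 of 6 neural crest markers. It was also reached by 4 of 8 markers of endocardium and endothelium. Summed liver markers lay between 2.27 and 12.8 CPM in wild-type and between 4.43 and 176 CPM in Tbx20EH1Mut libraries. The neural tube marker *Dbx1* was at 0 in every library, and *Sox1* and *Olig2* did not exceed 0.05 CPM. In bulk samples fewer cells of a type and less RNA per cell cannot be told apart.

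Of the 7 genes, 5 passed the filter. *Fgf8* and *Fgf10* were higher in Tbx20EH1Mut hearts, *Fgf9* was lower, *Fgf12* and *Fgf15* were not called, and *Fgf3* and *Fgf16* did not pass the filter, which asks for a minimum level in several libraries. The mean level of *Fgf3* (0.847 CPM in wild-type and 1.57 CPM in Tbx20EH1Mut hearts) was not below that of *Fgf12* and *Fgf15*, and it came mostly from 3 libraries. The genotypes did not overlap for *Fgf8*, *Fgf9* and *Fgf10*.

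**Figure D1:**
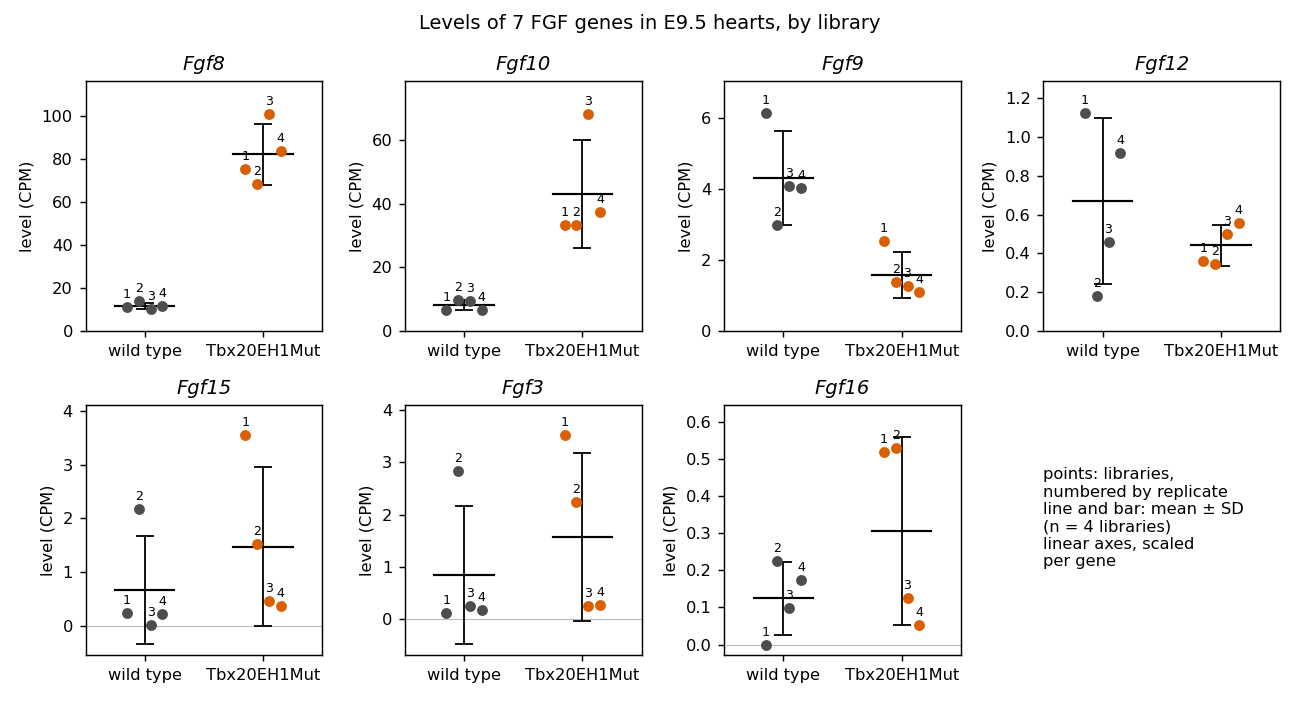
Level in CPM (linear axis from 0, scaled per gene) of the 7 genes in each of 4 wild-type and 4 Tbx20EH1Mut libraries; points are libraries with their replicate number, and the line and bar are the mean ± SD. The Tbx20EH1Mut points of *Fgf8* (68.3 to 101 CPM) and *Fgf10* (33.4 to 68.2 CPM) lie above all wild-type points, those of *Fgf9* lie below, and the points of the other genes overlap.

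*Fgf8* (ENSMUSG00000025219, chr19:45736798-45742915 of GRCm38, minus strand, 1350 exon bases) is the ligand that keeps second heart field cells dividing and surviving. Wild-type replicates 1 to 4 held 11.02, 13.9, 10.5 and 11.8 CPM of *Fgf8*, and Tbx20EH1Mut replicates 1 to 4 held 75.2, 68.3, 101 and 83.7 CPM. The libraries of each genotype lay close together, and the lowest Tbx20EH1Mut library was far above the highest wild-type library. The mean rose from 11.8 ± 1.48 to 82.1 ± 14.1 CPM (SD, n = 4 libraries each), which is 6.95-fold. On the log2 scale edgeR gave a rise of 2.80 with a standard error of 0.153 (adjusted p = 9.69e-06). It stayed between 2.69 and 2.89 when any 1 library was left out.

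*Fgf10* (ENSMUSG00000021732, chr13:118669791-118792115, plus strand, 4601 exon bases) is the second ligand that marks the anterior part of the second heart field. *Fgf10* was counted at 6.74, 9.67, 9.42 and 6.76 CPM in wild-type and 33.4, 33.4, 68.2 and 37.3 CPM in Tbx20EH1Mut replicates 1 to 4. Tbx20EH1Mut replicate 3 stood above the other three, which lay within 4 CPM of each other. The rise on the log2 scale was 2.40 with a standard error of 0.258 (edgeR, adjusted p = 2.86e-04), and it was 2.10 without that library. Of its exon bases, 2.67% overlap the antisense gene *Gm16263*, which had 8 counts over all libraries.

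*Fgf9* (ENSMUSG00000021974, chr14:58070547-58112337, plus strand, 4266 exon bases) is a ligand of the epicardium and endocardium that drives division of cardiomyocytes. *Fgf9* was counted at 6.13, 2.97, 4.08 and 4.04 CPM in wild-type and 2.54, 1.38, 1.28 and 1.11 CPM in Tbx20EH1Mut replicates 1 to 4. The gap between the genotypes was small, with wild-type replicate 2 only just above Tbx20EH1Mut replicate 1. *Fgf9* fell by 1.44 on the log2 scale (standard error 0.329, adjusted p = 0.0105 from edgeR), and the adjusted p reached 0.0372 when 1 library was left out. When the endoderm marker level entered the edgeR fit as a covariate, the log2 fold change was -1.26 with a wider standard error of 0.580. The call was lost (adjusted p = 0.117). The covariate, a mean of log2 CPM, was -0.61 to 3.13 in wild-type and 2.74 to 4.79 in Tbx20EH1Mut libraries. It thus largely followed genotype. Calls kept, lost or gained with it, here and below, cannot fully separate endoderm from genotype. Of the 7 tested epicardial markers, *Krt19* and *Wt1* were higher and carried the summed level from 134 to 276 CPM in wild-type to 406.6 to 484 CPM in Tbx20EH1Mut libraries. The other 5 (*Tbx18*, *Upk1b*, *Upk3b*, *Sema3d* and *Bnc1*) were not called, the list median was a log2 fold change of -0.019, and the part of such tissue in the *Fgf9* values was not tested.

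Promoter sequence is shown for *Fgf10* and *Fgf9*, which changed in opposite directions and have a RefSeq start site in the table used (GRCm38.p6; 4 of the 7 genes matched: *Fgf3*, *Fgf9*, *Fgf10* and *Fgf12*). Each run is the 250 bases before the start, on the plus strand, and capitals mark AGGTG or its reverse complement, the core of the site that T-box factors bind. The windows are chr13:118714449-118714698 for *Fgf10*, which lies inside the span of the deposited gene model but before the first coding exon, and chr14:58072436-58072685 for *Fgf9*, between the first listed exon and the exon that follows it.
Fgf10: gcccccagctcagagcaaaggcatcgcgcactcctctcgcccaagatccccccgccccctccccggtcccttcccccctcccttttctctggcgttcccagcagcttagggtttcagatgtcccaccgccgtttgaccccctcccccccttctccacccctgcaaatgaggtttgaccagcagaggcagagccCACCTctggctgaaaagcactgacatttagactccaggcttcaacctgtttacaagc
Fgf9: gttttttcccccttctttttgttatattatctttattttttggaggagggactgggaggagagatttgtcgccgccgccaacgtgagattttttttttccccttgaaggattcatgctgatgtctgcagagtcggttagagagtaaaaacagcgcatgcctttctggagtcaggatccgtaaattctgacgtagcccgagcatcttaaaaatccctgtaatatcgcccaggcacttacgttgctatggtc
The *Fgf10* window had 1 match to AGGTG, on the minus strand, 57 bases before the start. The *Fgf9* window had no match. The *Fgf3* window had 3, all on the minus strand, at 102, 92 and 48 bases before the start, and 2 of the 4 *Fgf12* windows had 1 each. Of 32817 RefSeq promoter windows of this length, 46.0% held AGGTG on either strand. The longer GGTGTGA was in 3.33% of them and AGGTGTGA, which contains both shorter motifs, in 1.12%, and neither was in any window of the 4 genes. GC content was 61.2% in the *Fgf10* window and 44.8% in the *Fgf9* window, against a median of 52.4% over all windows. A match is a match of letters and not a bound site.

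*Fgf3* (ENSMUSG00000031074, chr7:144838083-144844436, plus strand) and *Fgf15* (ENSMUSG00000031073, chr7:144896531-144900953, plus strand), ligands of the pharyngeal endoderm and the developing ear and brain, lie in a cluster of 62871 bases with *Fgf4* between them. *Fgf3* was at 0.121, 2.83, 0.259 and 0.175 CPM in wild-type and 3.52, 2.23, 0.250 and 0.265 CPM in Tbx20EH1Mut replicates 1 to 4. It was high in wild-type replicate 2 and Tbx20EH1Mut replicates 1 and 2, and below 0.3 CPM in the other 5 libraries. *Fgf15* was at 0.243, 2.18, 0.0199 and 0.218 CPM in wild-type and 3.55, 1.51, 0.469 and 0.371 CPM in Tbx20EH1Mut replicates 1 to 4, where the value of 0.0199 is a single count. The same 3 libraries were highest for *Fgf15*. *Fgf4* had 98, 54 and 47 counts in those 3 libraries, 4 counts in wild-type replicate 4 and 0 in the rest.

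The mean level of the genotypes did not differ beyond the spread between libraries for *Fgf3* (exact two-sided permutation test, p = 0.486, n = 4 against 4). For *Fgf15* edgeR estimated 1.14 on the log2 scale, with a standard error of 1.06 (adjusted p = 0.438). It hung on single libraries. Without Tbx20EH1Mut replicate 1 it was 0.24 (adjusted p = 0.891), without wild-type replicate 2 it was 3.24 and was called (adjusted p = 0.0441), and with the endoderm marker level as a covariate it was -2.10 (adjusted p = 0.0660). Endoderm markers were highest in Tbx20EH1Mut replicates 1 and 2, at a mean of 4.79 and 4.47 log2 CPM, and wild-type replicate 2 stood above the other wild-type libraries at 3.13 log2 CPM against -0.61 to 1.23. Tbx20EH1Mut replicate 4 was above wild-type replicate 2 at 4.01 log2 CPM, and *Fgf3*, *Fgf4* and *Fgf15* were low in it (0.265, 0 and 0.371 CPM). Single markers did not all share that order. Wild-type replicate 2 was above Tbx20EH1Mut replicate 4 for *Cldn6* (20.8 against 14.7 CPM), *Pax9* (3.95 against 1.67), *Sox2* (6.66 against 3.92) and narrowly *Cdh1* (8.09 against 8.06). Every other listed endoderm marker was higher in Tbx20EH1Mut replicate 4. *Tbx1*, a T-box factor of the pharynx, was at 12.7, 29.2 and 9.002 CPM in the 3 libraries with high *Fgf3* and did not exceed 3.45 CPM in the others. The part of such tissue in the *Fgf3* and *Fgf15* values was not tested, since the endoderm covariate largely followed genotype. Of the *Fgf15* exon bases, 25.7% overlap the antisense genes *Gm26793* and *Gm39119*, which had 48 counts in all, and the strand setting of the counting is not given in the sources used here.

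The summed level of the listed endoderm markers, most of it from *Krt8* and *Krt18*, separated the genotypes, as *Fgf8* and *Fgf10* did. In wild-type replicate 3 *Krt8* and *Krt18* were at 131 and 57.2 CPM while *Epcam* was at 0.657 CPM, so the sum need not follow endoderm. Within the Tbx20EH1Mut libraries, replicate 3 had the lowest endoderm level (706 CPM summed, 2.74 as a mean of log2 CPM) and the highest *Fgf8* and *Fgf10* (101 and 68.2 CPM). That is 1 library, and no conclusion is drawn from it. Wild-type replicate 2 was at 328 CPM summed and 3.13 as a mean of log2 CPM, so that its order against Tbx20EH1Mut replicate 3 depends on the measure. With the mean of log2 CPM as a covariate the calls of *Fgf8* and *Fgf10* were kept, with a log2 fold change of 2.67 for *Fgf10* (adjusted p = 0.00116 from edgeR). Of the 14 endoderm markers, 5 (*Sox17*, *Krt8*, *Krt18*, *Shh* and *Hhex*) did not overlap between the genotypes, beside 30.5% of all genes tested. The others, among them *Epcam*, *Cdh1* and *Foxa2*, overlapped. The covariate largely followed genotype, so the fit cannot fully separate endoderm from genotype. No fit used the summed level, and the part of endoderm in the *Fgf8* and *Fgf10* values was not tested.

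**Figure D2:**
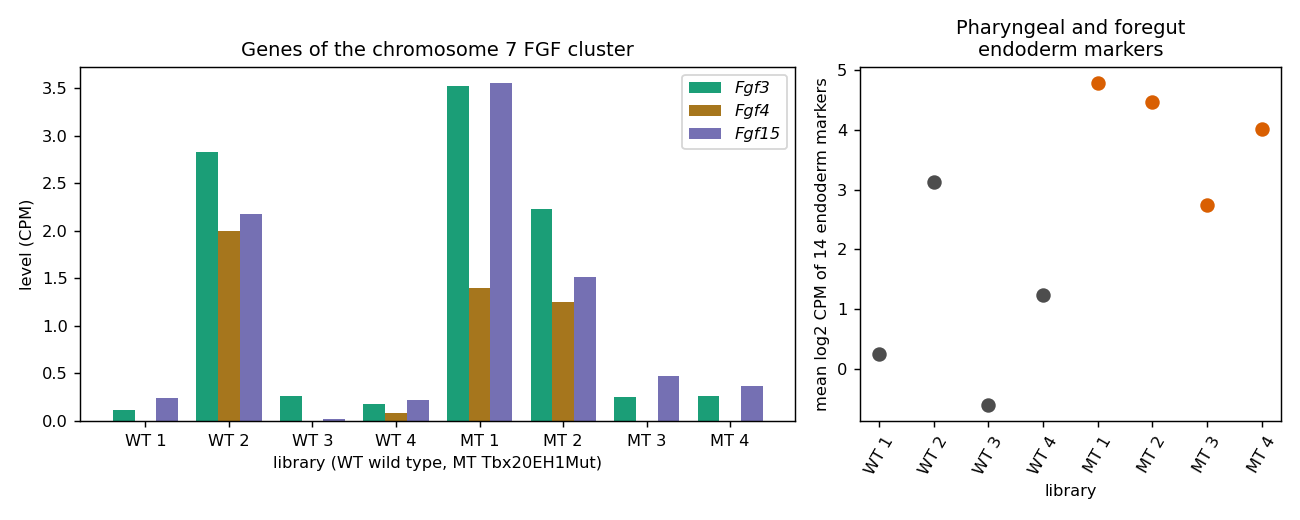
Left, level in CPM of *Fgf3*, *Fgf4* and *Fgf15* in each library (bars from 0; WT wild type, MT Tbx20EH1Mut). Right, mean log2 CPM of 14 pharyngeal and foregut endoderm markers in the same libraries. All 3 genes stand out in WT 2, MT 1 and MT 2. The mean marker level was 4.01 in MT 4, where the 3 genes were low, and 3.13 in WT 2. Single markers differed in which of these libraries was higher.

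The genes that flank the cluster were read for comparison. *Ccnd1*, which encodes cyclin D1 and lies 28978 bases from *Fgf15*, was lower in Tbx20EH1Mut hearts (63.9 ± 22.1 against 22.03 ± 10.7 CPM, SD, n = 4 each, adjusted p = 0.0113 from edgeR). Its log2 fold change was -1.53, and -2.68 with the endoderm covariate (adjusted p = 0.00125). *Fadd*, an adaptor of death receptors 255620 bases from *Fgf3*, was also lower (log2 fold change -0.71, adjusted p = 0.0151), with overlap between the genotypes, and was not called without wild-type replicate 3 (adjusted p = 0.0510) or with the endoderm covariate (0.0854). The chloride channel gene *Ano1* (-0.68, adjusted p = 0.217) and *LTO1* (-0.25, adjusted p = 0.165) were not called. Without Tbx20EH1Mut replicate 1, *Ano1* was called lower (-1.17, adjusted p = 0.0323 from edgeR). With the endoderm covariate *Ano1* was at -1.49 and was not called. Within each genotype *Ccnd1* was highest in the libraries with high *Fgf3*, at 94.5 CPM in wild-type replicate 2 against 43.4 to 64.2 CPM in the other wild-type libraries, and at 29.1 and 32.9 CPM in Tbx20EH1Mut replicates 1 and 2 against 10.8 and 15.2 CPM in replicates 3 and 4.

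*Fgf12* (ENSMUSG00000022523, chr16:28160120-28445227, minus strand) was at 1.12, 0.183, 0.458 and 0.916 CPM in wild-type and 0.363, 0.345, 0.5001 and 0.557 CPM in Tbx20EH1Mut replicates 1 to 4. The wild-type libraries spread over the whole range of the Tbx20EH1Mut libraries. The edgeR estimate was -0.59 on the log2 scale, with an error of 0.539 (SE, adjusted p = 0.429), and it turned to 0.67 with the endoderm covariate (adjusted p = 0.624). All 4 RefSeq starts of *Fgf12* lie beyond the upstream end of the deposited gene model at 28445227, so reads on those first exons were not counted for it.

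*Fgf16* (ENSMUSG00000031230, chrX:105764279-105774939, plus strand), a heart ligand of the *Fgf9* subfamily, had 0, 11, 5 and 8 counts in wild-type and 20, 20, 4 and 2 counts in Tbx20EH1Mut replicates 1 to 4. The 0 in wild-type replicate 1 allows a level of up to 0.0910 CPM, which covers counting error only. The highest counts were in Tbx20EH1Mut replicates 1 and 2, and the genotypes overlapped (exact two-sided permutation test, p = 0.286, n = 4 against 4). With only the demand of at least 1 count in any library, edgeR gave *Fgf16* a log2 fold change of 1.24 (adjusted p = 0.383) and *Fgf3* 0.85 (adjusted p = 0.540).

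To compare genes with each other, levels were divided by exon length. In wild-type hearts the order was *Fgf8* at 8.75 ± 1.099 CPM per kb, *Fgf10* at 1.77 ± 0.352, *Fgf9* at 1.01 ± 0.309, *Fgf3* at 0.364 ± 0.569, *Fgf12* at 0.219 ± 0.139, *Fgf15* at 0.217 ± 0.332 and *Fgf16* at 0.0757 ± 0.0593 (SD, n = 4). *Fgf8* lay above *Fgf10*, and *Fgf10* above *Fgf9*, in every library range, while each later neighbour in the order overlapped the next. In Tbx20EH1Mut hearts *Fgf8* reached 60.8 ± 10.5 and *Fgf10* 9.36 ± 3.66 CPM per kb, again without overlap. The other 5 genes lay between 0.144 and 0.674 CPM per kb on average and overlapped with their neighbours. *Fgf9* moved behind *Fgf3* and *Fgf15*, whose means rested on the 2 libraries with high values. The ratio of *Fgf8* to *Fgf10* per length was 5.06 ± 0.951 in wild-type and 6.84 ± 1.24 in Tbx20EH1Mut hearts (exact two-sided permutation test, p = 0.0857, n = 4 against 4).

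The remaining 15 FGF genes of the tables gave the background of the family. Of these, 9 passed the filter and 3 were called, all higher (*Fgf1*, *Fgf6* and *Fgf11*), beside 12.5% of all genes tested that were higher and 24.6% called in either direction. *Fgf11*, an intracellular factor related to *Fgf12*, was at 3.22, 2.67, 3.13 and 3.47 CPM in wild-type and 15.5, 15.8, 8.66 and 14.3 CPM in Tbx20EH1Mut replicates 1 to 4 (2.12 on the log2 scale in edgeR, standard error 0.215, adjusted p = 2.04e-04). Tbx20EH1Mut replicate 3, the library with the highest *Fgf8* and *Fgf10*, had the lowest *Fgf11* of its genotype.

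*Fgf1*, a ligand that binds all FGF receptors, rose from 2.22 ± 0.820 to 6.29 ± 0.783 CPM (SD, n = 4 each), or 1.49 on the log2 scale in edgeR (adjusted p = 0.00376). With the endoderm covariate it was 0.91 and the call was lost (adjusted p = 0.0702). *Fgf6*, a ligand best known from skeletal muscle, rose from 0.778 ± 0.225 to 2.23 ± 0.750 CPM (1.52 on the log2 scale, adjusted p = 0.00914). *Fgf13*, the most abundant intracellular member, passed the adjusted p (0.0466) with a log2 fold change of 0.39 that was below the threshold.

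The other 5 tested genes were not called, at log2 fold changes of -0.06 for *Fgf2*, 0.06 for *Fgf5*, -0.75 for *Fgf7*, 0.52 for *Fgf18* and -0.69 for *Fgf23*. The signs for *Fgf2*, *Fgf5* and *Fgf18* turned under at least 1 alternative. *Fgf4*, *Fgf14*, *Fgf17*, *Fgf20*, *Fgf21* and *Fgf22* failed the filter. Of the *Fgf2* exon bases, 13.2% overlap other genes, among them the antisense gene *Nudt6*, so its level is uncertain.

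**Figure D3:**
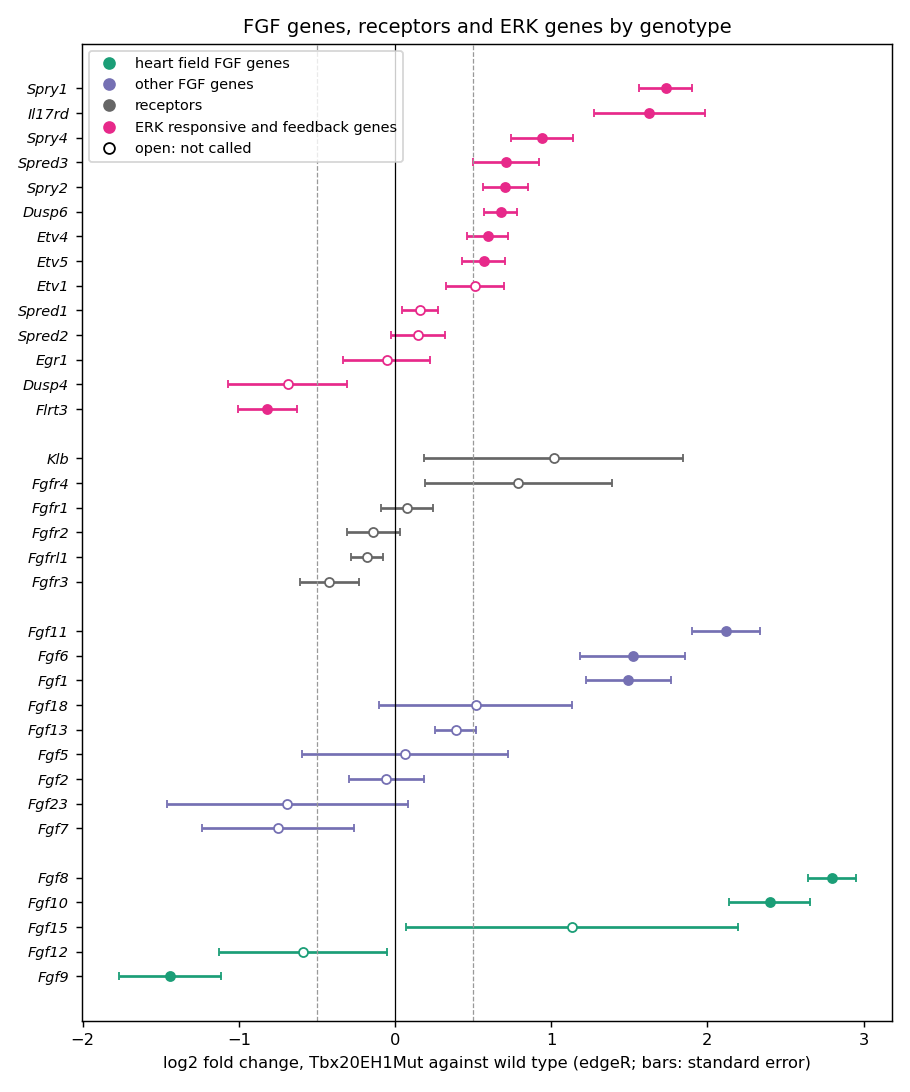
Log2 fold change of Tbx20EH1Mut against wild-type hearts for each tested FGF gene, receptor and ERK gene, with the standard error from edgeR as a bar; filled points were called and the dashed lines mark 0.5 and -0.5. *Fgf8* (2.80), *Fgf10* (2.40) and *Fgf11* (2.12) lie furthest to the right, *Fgf9* (-1.44) lies furthest to the left, and all 6 receptors are open points.

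Summed over the 22 FGF genes, the level per exon length was 22.04, 27.1, 22.1 and 23.1 CPM per kb in wild-type and 83.4, 81.3, 107 and 88.6 CPM per kb in Tbx20EH1Mut replicates 1 to 4. Every Tbx20EH1Mut library had at least 81.3 CPM per kb, against at most 27.1 in the wild type (p = 0.0286 in the exact two-sided permutation test, where 4 against 4 allow none smaller). *Fgf8* made up 35.1 to 37.9% of the sum in wild-type and 62.2 to 69.97% in Tbx20EH1Mut libraries (exact permutation test, p = 0.0286, n = 4 against 4). The share of *Fgf13* went from 26.6 to 35.9% down to 8.99 to 13.2%, while its own level did not fall. *Fgf10* held 6.35 to 9.25% and 8.69 to 13.8%, ranges that overlap.

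**Figure D4:**
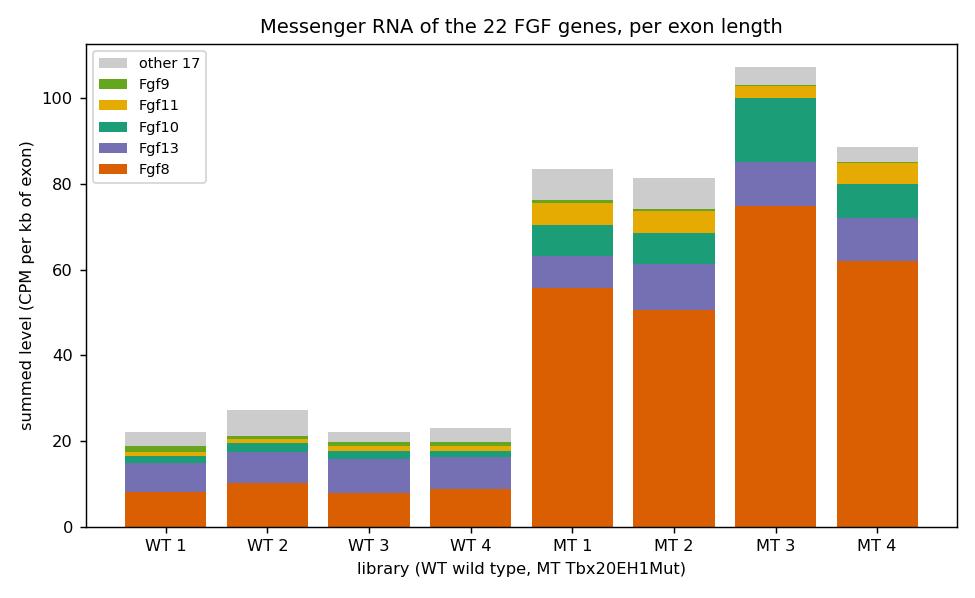
Level per kb of exon, summed over 22 FGF genes and stacked from 0, in each library (WT wild type, MT Tbx20EH1Mut). The *Fgf8* segment makes up at most 37.9% of a wild-type bar and at least 62.2% of a Tbx20EH1Mut bar.

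None of the FGF receptors was called in the comparison of the genotypes. Of 7 receptors and co-receptors, 6 passed the filter and 0 were called by edgeR, DESeq2 or limma-voom. In edgeR 0 had an unadjusted p of at most 0.05. Over all 17163 genes tested, edgeR called 24.6%, and 7403 had an unadjusted p of at most 0.05. The 0 of 6 was not tested against that share. *Fgfr1*, the main receptor of early mesoderm, lay between 58.3 and 97.7 CPM in wild-type and between 64.1 and 92.1 CPM in Tbx20EH1Mut libraries (log2 fold change 0.07, standard error 0.167). *Fgfr2*, whose epithelial form binds *Fgf10* and whose mesenchymal form binds *Fgf8* and *Fgf9*, lay between 25.5 and 34.0 and between 18.2 and 31.6 CPM (log2 fold change -0.14, standard error 0.172), and counts per gene do not separate the forms. *Fgfr3* was the receptor closest to a call (log2 fold change -0.42, adjusted p = 0.119) and was called without wild-type replicate 1 (-0.55, adjusted p = 0.0301) and with the endoderm covariate (-0.83, adjusted p = 0.0277). The sparsely counted *Fgfr4* (0.79, standard error 0.599) and *Klb* (1.02, standard error 0.8293) had wide errors.

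Of 15 genes that respond to FGF and ERK signalling or feed back on it, 14 were found and tested, 8 were higher, 1 was lower and 5 were not called, beside 12.5% higher and 12.1% lower among all genes tested. The list had a median log2 fold change of 0.58 against 0.0048 over all genes tested. Sprouty genes encode inhibitors of receptor signalling. *Spry1* was at 13.5, 16.9, 10.02 and 10.6 CPM in wild-type and 46.1, 43.8, 39.8 and 40.0 CPM in Tbx20EH1Mut replicates 1 to 4 (1.73 on the log2 scale in edgeR, standard error 0.170, adjusted p = 1.80e-04), with no overlap. *Il17rd*, a membrane inhibitor of FGF signalling, rose from 12.7 ± 8.28 to 39.5 ± 7.53 CPM (SD, n = 4 each, 1.63 on the log2 scale in edgeR, adjusted p = 0.00883), and wild-type replicate 2 stood above the other wild-type libraries at 25.1 CPM. *Spry4* rose from 20.7 ± 4.84 to 39.7 ± 8.47 CPM (0.94 on the log2 scale, adjusted p = 0.00710).

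Smaller rises were called for *Spred3*, *Spry2*, the ERK phosphatase gene *Dusp6* and the transcription factors *Etv4* and *Etv5*, with log2 fold changes of 0.57 to 0.71. Of these 8 genes, *Il17rd*, *Spred3*, *Etv4* and *Etv5* were not called with the endoderm covariate, and *Spred3* was lost in 5 of the 8 leave-one-out fits. *Etv5* was also lost without wild-type replicate 1 or 4 and with library size alone, and *Etv4* without Tbx20EH1Mut replicate 1. *Flrt3*, a membrane protein that promotes FGF signalling, fell by 0.82 on the log2 scale (adjusted p = 0.0107). *Spred1*, *Spred2*, *Etv1*, *Dusp4* and the immediate early gene *Egr1* were not called. With the endoderm covariate *Etv1* was called higher (0.93, adjusted p = 0.0154) and *Dusp4* lower (-1.58, adjusted p = 0.0142). *Etv1* was also called with upper-quartile scaling and without Tbx20EH1Mut replicate 2, and *Dusp4* without wild-type replicate 1.

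**Figure D5:**
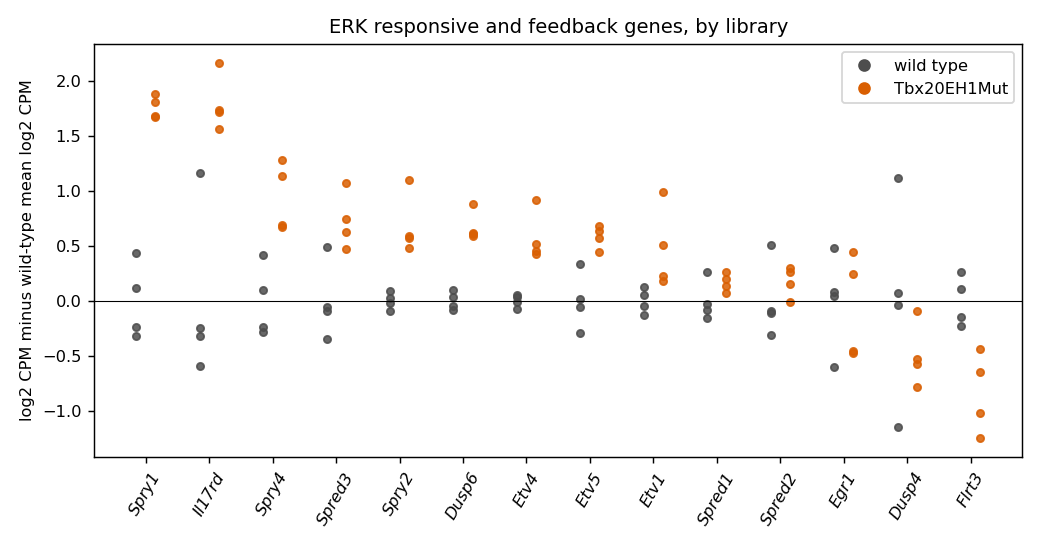
Log2 CPM minus the wild-type mean for 14 ERK responsive and feedback genes, ordered by fold change; each point is 1 library (4 wild-type, 4 Tbx20EH1Mut). Tbx20EH1Mut points of *Spry1* lie above all wild-type points, those of *Flrt3* below, and those of *Egr1* among them.

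Heparan sulfate enzymes shape the sugar chains that hold FGF ligands at the receptor. Of 16 listed, 13 were tested, 2 were higher, 2 were lower and 9 were not called, so that 4 of 13 were called beside 24.6% of all genes tested. *Hs3st3b1* rose from 4.87 ± 2.21 to 16.4 ± 6.55 CPM (SD, n = 4 each, 1.75 on the log2 scale in edgeR, adjusted p = 0.00598) and its neighbour in sequence *Hs3st3a1* from 1.01 ± 0.200 to 2.86 ± 1.52 CPM (1.495, adjusted p = 0.0220). These paralogs could share reads, and neither was called with the endoderm covariate. The genotypes overlapped for *Hs3st3a1*, and its call was also lost without wild-type replicate 3 (adjusted p = 0.0646), wild-type replicate 4 (0.0597) or Tbx20EH1Mut replicate 1 (0.0612). *Glce* fell by 0.62 on the log2 scale (adjusted p = 0.0149). *Ndst1* fell by 1.46 (adjusted p = 0.0289), with wild-type replicate 2 at 71.1 CPM against 14.6 to 33.9 CPM in the other wild-type libraries, and the fall was 0.96 without it (adjusted p = 0.0721). Its call was lost in 6 of the 8 leave-one-out fits, with an adjusted p of 0.0509 to 0.0831, and the genotypes overlapped. *Hs6st1* lay just outside the threshold (-1.19, adjusted p = 0.0513) and was called lower by DESeq2 (adjusted p = 0.00872), under both other count filters, with the replicate block, with the endoderm covariate (-2.34) and without wild-type replicate 1 or Tbx20EH1Mut replicate 2. The covariate also gained *Ext2* (-0.69), *Ndst2* (-0.60) and *Hs3st1* (1.40), so that 6 enzymes were called under it. Of the FGF-binding proteins, *Fgfbp3* was not called (log2 fold change 0.47, adjusted p = 0.125) and *Fgfbp1* failed the filter.

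Transcription factors of the heart field were read beside the ligands. Of 16, 4 were higher, 2 were lower and 10 were not called, beside 12.5% higher and 12.1% lower over all genes tested. *Isl1*, the defining factor of the second heart field, was at 26.1, 24.7, 12.5 and 15.9 CPM in wild-type and 102, 77.9, 171 and 129 CPM in Tbx20EH1Mut replicates 1 to 4 (2.60 on the log2 scale in edgeR, standard error 0.296, adjusted p = 3.78e-04). As for *Fgf8* and *Fgf10*, replicate 3 was the highest Tbx20EH1Mut library. *Osr1*, a factor of the posterior second heart field, rose by 1.52 in edgeR (adjusted p = 0.0106), and by 1.08 without Tbx20EH1Mut replicate 1. It was at 7.05 to 8.89 CPM in wild-type and 40.2, 9.98, 17.3 and 21.4 CPM in Tbx20EH1Mut replicates 1 to 4. *Foxc1* rose by 0.88 and *Foxc2* by 0.83. Under the endoderm covariate *Osr1* was at 1.21 (adjusted p = 0.147) and *Foxc1* at 0.57 (adjusted p = 0.0731), neither of them called. *Foxh1*, a partner of Nodal signalling, fell by 1.27. *Tbx5*, a factor of the first heart field and, like *Osr1*, of the posterior second heart field, fell by 0.80. *Tbx1*, *Six2* and *Eya1* were not called, and all 3 were called higher without wild-type replicate 2. *Gata4* fell short of the fold threshold (-0.494, adjusted p = 0.0319). With that threshold kept, it was called lower with library size alone, DESeq2, the filter of at least 1 count and the endoderm covariate. The same held without wild-type replicate 1 or Tbx20EH1Mut replicate 2. With no fold threshold 8 factors were called, among them *Gata4* and *Hand2* (-0.29, adjusted p = 0.0437 from edgeR).

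The genes whose pattern over the 8 libraries was most like that of each tested gene were found by the root mean square difference of centred log2 CPM, over 10498 or 10499 genes. Since they were picked for that likeness, a change in the same direction follows from the choice and is no separate result. For *Fgf8* these were *Sparcl1* (0.173) and *Igfbp3* (0.215), which rose from 13.8 ± 2.04 to 91.3 ± 6.31 and from 25.9 ± 3.71 to 202 ± 11.8 CPM (SD, n = 4 each). For *Fgf10* they were *Myct1* (0.206) and *Hist3h2ba* (0.303), and for *Fgf9* *Mrap* (0.306) and *Msx1* (0.327), which fell by 1.15 and 1.21 on the log2 scale. *Fgf12* was most like *Mt3* (0.313) and *Tm4sf1* (0.336). *Fgf15* had no close match: *Tbx1* (0.690) and *St14* (0.756), an epithelial protease, came nearest.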

How the data were processed

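Poly-A RNA from 8 pools of 3 whole hearts was sequenced. Per the labels, the submitters' processing notes name Trimmomatic 0.36, STAR 2.5.2b and GRCm38/mm10. The counting tool and strand setting are not given in the sources used here. The authors deposited 1 table of raw counts per library, whole numbers of reads per Ensembl gene with no normalization, and the summed exon length of each gene, which was used for levels per kb. Symbols came from GENCODE M21 for 48970 of 49315 genes and promoters from RefSeq.

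Genotypes were taken from the labels. Counts were filtered with filterByExpr (minimum count 10), scaled by TMM and fitted with edgeR 4.0.16 (R 4.3.3, glmQLFit and glmQLFTest, genotype as the only term), with Benjamini-Hochberg adjustment over 17163 genes. Thresholds of 0.05 and 0.5 (log2) are those of the study's methods. For single values per library an exact permutation test of the means was run, two-sided, over 70 arrangements (smallest p 0.0286). The fit was checked on simulated counts, but no values of that check are given here, so no result rests on it. No 2 libraries of a genotype agreed within sampling noise. Alternatives were DESeq2 1.42.0, limma-voom (limma 3.58.1), RLE factors, upper-quartile factors, unscaled library sizes, 2 other filters, 2 other fold thresholds, a replicate block, the mean log2 CPM of 14 endoderm markers as a covariate, and leaving out each library in turn. Total counts were 33359322 to 49523086 per library, so that 3 counts correspond to 0.0597 to 0.0937 CPM depending on the library, and levels near these values are the least precise.

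Named were the 7 genes, every other tested FGF gene, up to 4 called genes with the largest fold change from each pathway list, the 2 most similar genes (mean of at least 5 CPM) per tested gene, and the 4 nearest tested neighbours of the cluster. Names beyond these were added after their values were seen. The 7 genes and the lists were chosen with earlier results of these data known. Tables were made with Python 3.11.15, pandas 2.3.3 and numpy 2.4.6, and plots with matplotlib 3.10.9.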

Additional observations from a re-analysis of the deposited data

Results flagged for a closer look

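Over 42 genes named by the rule and 2 genotypes, 84 groups of 4 libraries were tested for 1 library far from the other three with Dixon's test, and 11 exceeded its 95% critical value, where chance gives about 1 in 20 independent groups. *Tbx1*, *St14* and *Mrap* were named for a pattern like that of *Fgf15* or *Fgf9*, so the groups are not independent and the count cannot be read against that rate. Wild-type replicate 2 was high for *Fgf3* (2.83 CPM), *Fgf15* (2.18 CPM), *Tbx1* (12.7 CPM), *Il17rd* (25.1 CPM) and *St14* (5.58 CPM), and low for *Mrap* (7.03 CPM). Wild-type replicate 1 was high for *Fgf5* (2.22 CPM) and low for *Fgf7* (0.516 CPM) and *Fgf23* (0.152 CPM). Tbx20EH1Mut replicate 3 was high for *Fgf10* (68.2 CPM) and *Fgf6* (3.34 CPM). With the exception of *Fgf5*, *Fgf7*, *Fgf15*, *Fgf23*, *Tbx1* and *St14*, the tested genes among these were called with and without the library that stood apart.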

How the results depend on the processing

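The calls of *Fgf8* and *Fgf10* were kept under all alternatives and without any 1 library, and that of *Fgf9* under all except the endoderm covariate. Calls among the 7 genes, of which 5 could be tested, numbered 3 in the report (24.6% of all genes tested were called), 2 with the endoderm covariate and 3 to 4 without 1 library, the fourth being *Fgf15* without wild-type replicate 2. Leaving out 1 library gave 2836 to 5667 called genes, 3 other FGF genes in every fit, 0 to 1 receptors, 7 to 9 ERK genes, 2 to 6 heparan sulfate enzymes and 6 to 9 heart field factors. With a log2 fold change of at least 1 there were 1859 called genes, 2 ERK genes and 3 heart field factors, and with the endoderm covariate 1 receptor. The replicate numbers shared only a number (correlation of the deviations of same-numbered libraries -0.268, 0.338, 0.06 and 0.06), and 1 of the 8 libraries (Tbx20EH1Mut replicate 2) correlated best with its own number. With the replicate block 3681 genes were called, 3 of them among the 7 genes, *Hs3st3a1* was lost (adjusted p = 0.0504), and *Hs6st1* (-1.20, adjusted p = 0.0353) and *Six2* (2.18, adjusted p = 0.0496) were gained.

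Signs turned with the endoderm covariate for *Fgf12* (0.67), *Fgf15* (-2.10), *Fgf18* (-1.26), *Mt3* (1.52), *Tm4sf1* (0.40), *Tbx1* (-1.52) and *St14* (-0.87). *Mt3* also turned with limma-voom (0.0395), with the replicate block (0.0146) and without wild-type replicate 1 or Tbx20EH1Mut replicate 1 (-0.46 to 0.28 over all libraries left out). *Fgf2* turned with upper-quartile scaling (0.0344) and without wild-type replicate 2 or Tbx20EH1Mut replicate 1 (-0.14 to 0.0756). *Fgf5* turned without wild-type replicate 2, 3 or 4 or Tbx20EH1Mut replicate 2 or 3 (-0.46 to 0.88). The cause was not tested. None of these genes was called in the report.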
